A study of Mus musculus with 4 samples.

Results

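The Msx, Dlx and Alx genes encode homeobox transcription factors that pattern the skull and face, and 9 of them (*Msx1*, *Msx2*, *Dlx1*, *Dlx2*, *Dlx3*, *Dlx5*, *Dlx6*, *Alx1*, and *Alx4*) were followed by symbol among the 23946 genes of each library. Bulk RNA-seq was performed on CD51+;CD200+ cells, a skeletal stem/progenitor population, sorted from 3 cranial sutures, namely the coronal (COR), the sagittal (SAG), and the posterior frontal (PF), and from the growth plate (GP) of the tibia. All 4 groups were wild-type CD-1 mice at postnatal day 3 with no treatment, and cells of many mice were pooled into 1 library per tissue. The sutures were taken with the osteogenic fronts, the underlying dura mater, and the overlying periosteum, and sorting removed cells positive for CD45, Ter119, Tie2, Thy1, 6C3, or CD105.

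MSX proteins act mainly as repressors downstream of BMP signals in the skull vault, where MSX2 dosage is known to affect both suture closure and ossification of the parietal bones. DLX proteins bind similar AT-rich sites, and DLX5 and DLX3 activate genes of the osteoblast program, while the DLX genes lie in neighbouring pairs that share enhancers. ALX proteins are paired-type homeodomain factors of the frontonasal neural crest and the calvaria, and loss of ALX4 is a known cause of parietal foramina. In the mouse, the posterior frontal suture is the one known to close after birth, and the long-bone GP served as the comparison outside the skull.

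Expression is given as FPKM, fragments scaled to transcript length and to sequencing depth, as estimated by the authors. With 1 library per tissue there is no error between animals, so every difference below is a comparison of libraries without a p-value. In bulk RNA, fewer cells of a type and less RNA per cell cannot be told apart. Relative to SAG, the depth estimated here from the smallest step of low values was 44.7% for PF, 84.8% for GP, and 89.3% for COR. The hindlimb gene *Hoxa10* was at 79.6 FPKM in GP and between 0.145 and 0.594 in the sutures, and *Itgav* and *Cd200*, the genes of the sorting antigens, were above 6 FPKM in every library, the lowest value being 6.20 for *Itgav* in SAG.

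The 250 bases before the RefSeq transcription start are shown for 2 members, *Msx1* and *Dlx2*. *Msx1* was the highest of the 9 in PF and SAG, and *Dlx2*, like *Dlx1*, was below 1 FPKM in every library. The *Msx1* window lies at chr5:38215825-38216074 and the *Dlx2* window at chr2:71384812-71385061 (mm9, both on the minus strand), and capitals mark motif matches.
Msx1: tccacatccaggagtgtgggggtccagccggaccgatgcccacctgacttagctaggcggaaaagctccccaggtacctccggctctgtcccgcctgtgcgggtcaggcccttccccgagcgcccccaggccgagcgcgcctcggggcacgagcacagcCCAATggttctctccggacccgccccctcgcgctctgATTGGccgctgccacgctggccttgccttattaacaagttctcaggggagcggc
Dlx2: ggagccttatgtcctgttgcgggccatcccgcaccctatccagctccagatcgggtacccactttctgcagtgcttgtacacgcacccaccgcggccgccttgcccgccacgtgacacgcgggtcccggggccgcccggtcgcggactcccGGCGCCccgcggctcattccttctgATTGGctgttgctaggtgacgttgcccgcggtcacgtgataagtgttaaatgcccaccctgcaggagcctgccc

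5 short motifs were searched on both strands. The *Msx1* window held CCAAT, the CAAT-box core, in both orientations, at 91 to 87 and at 54 to 50 bases before the start. The *Dlx2* window held CCAAT at 74 to 70 bases and GGCGCC at 99 to 94 bases before the start. CCAAT was present in 33.8% of 32851 promoter windows of this length and GGCGCC in 9.59%. The *Msx2* window held TAATTA, a core that homeodomain proteins bind, at 187 to 182 bases and CCAAT at 124 to 120 bases before the RefSeq start, and TAATTA was present in 4.84% of windows. That *Msx2* window falls wholly in an exon of the GENCODE model, as does the *Dlx1* window, which held none of the 5 motifs. The TATA-box core TATAAA, present in 12.4% of windows, was in none of the 4 member windows searched. The same held for TAATTG, a further homeodomain core present in 7.17% of windows, whose letters can overlap those of the other homeodomain core and of the CAAT box on the other strand. The windows of *Msx1*, *Msx2*, *Dlx1*, and *Dlx2* had a GC content between 61.6% and 68%, compared with a median of 52.4% over all windows. RefSeq windows for *Dlx3*, *Dlx5*, *Dlx6*, *Alx1*, and *Alx4* were not used here. A match describes letters and is not a binding site.

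Expression of the 9 genes separated the sutures from GP mainly through the Msx and Alx genes. *Msx1*, *Msx2*, and *Alx1* were at least 3-fold higher in all 3 sutures than in GP, which held for 0.257% of 13998 genes, and no member was at least 3-fold lower in all 3, which held for 0.979%. These comparisons share the GP library. Each ratio is a difference of log2(FPKM + 1), so changes of genes with low values come out too small, and it was computed for genes at 1 FPKM or more in at least 1 library compared. The 3-fold limit corresponds to 1.58 on that scale. *Alx4* passed the limit in SAG and COR and fell just short in PF, so that 4 members passed when the PF library was left out and 3 when SAG or COR was left out.

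*Msx1* (mm9 chromosome 5, 38211724 to 38215822) was at 15.9 FPKM in GP, 94.4 in COR, 175 in SAG, and 258 in PF. It was the highest of the 9 genes in PF and SAG, where it ranked 396 and 456 from the top of all genes, compared with 1030 in COR and 4690 in GP. The log2 ratio to GP was 3.93 for PF, 3.38 for SAG, and 2.49 for COR. Between sutures it was 1.44 for PF against COR, and 0.56 for PF against SAG, short of 3-fold in each case. After a correction for GC content the PF against SAG value was -0.052, so the order of PF and SAG was not kept.

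*Msx2* (chromosome 13, 53562250 to 53568443), the paralog altered in a human craniosynostosis, was at 2.13 FPKM in GP, 22.1 in COR, 54.4 in SAG, and 43.2 in PF. PF and SAG were close, COR was below both, and GP was lowest by a wide gap. The log2 ratio to GP was 3.82 for PF, 4.14 for SAG, and 2.88 for COR. Between sutures the largest difference was -1.26 for COR against SAG, short of 3-fold. The value in GP corresponds to about 171 fragments by the step of low values, so it is not near the detection limit of that library. Within a library *Msx1* exceeded *Msx2* by 7.47-fold in GP, 4.27-fold in COR, 3.22-fold in SAG, and 5.96-fold in PF.

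*Alx1* (chromosome 10, 102470481 to 102491685), needed for closure of the cranial neural tube and for midface development, was at 0.674 FPKM in GP, 34.2 in COR, 14.2 in SAG, and 17.8 in PF. All 3 sutures were far above GP, and the highest suture was COR rather than PF or SAG. The log2 ratio to GP was 3.49, 3.18, and 4.39 for PF, SAG, and COR. *Alx4* (chromosome 2, 93482541 to 93521496) was at 2.37 FPKM in GP, 9.60 in COR, 13.3 in SAG, and 8.57 in PF. Its sutures lay within 1.39-fold of the next in order, and the log2 ratio to GP was 1.51 for PF, 2.09 for SAG, and 1.65 for COR. For PF it passed the limit with a pseudocount of 0.1, at 1.81, and relative to *Gapdh*, at 1.90, and for COR it was 1.53, below the limit, after the GC correction. *Alx1* exceeded *Alx4* in COR by 3.57-fold and in PF by 2.07-fold, was near it in SAG at a ratio of 1.06, and was below it in GP at 0.285.

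**Figure D1:**
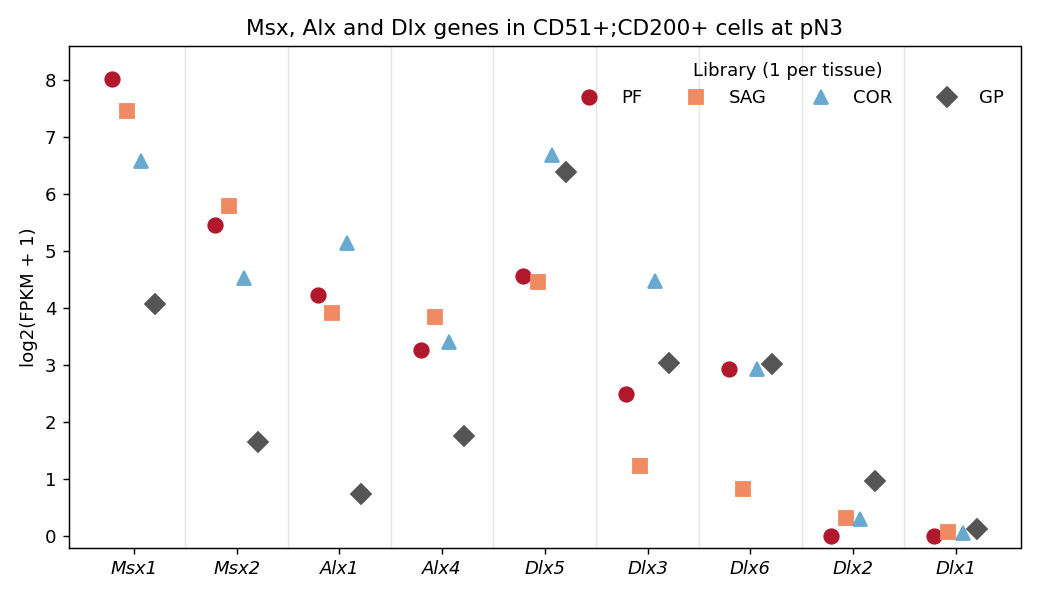
Expression of the 9 genes as log2(FPKM + 1) in the PF, SAG, COR, and GP libraries, 1 point per library and no error bars since each tissue has 1 library. *Msx1*, *Msx2*, *Alx1*, and *Alx4* are lowest in GP, *Dlx5* and *Dlx3* are highest in COR, and *Dlx1* and *Dlx2* are at or near 0.

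The Dlx genes did not follow the Msx and Alx genes. *Dlx5* (chromosome 6, 6827805 to 6832085), an activator of osteoblast genes, was at 82.3 FPKM in GP, 102 in COR, 20.9 in SAG, and 22.6 in PF. COR and GP were high and within 1.24-fold of each other, while PF and SAG were low and within 1.08-fold. The log2 ratio was -2.13 for PF against COR, 2.24 for COR against SAG, -1.82 for PF against GP, and -1.93 for SAG against GP. Relative to *Gapdh* the PF against GP ratio was -1.37 and no longer past 3-fold. The PF against SAG ratio was 0.11, and it was -0.28 after the GC correction, so the order of PF and SAG was not kept. *Dlx5* was the highest of the 9 genes in COR and GP.

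*Dlx3* (chromosome 11, 94981403 to 94986610), a factor of bone, tooth, and epidermal differentiation, was at 7.20 FPKM in GP, 21.2 in COR, 1.35 in SAG, and 4.67 in PF. COR was highest and SAG lowest, with a log2 ratio of 3.24 for COR against SAG, the largest between sutures among the members. The ratio was -1.97 for PF against COR, 1.27 for PF against SAG, 1.44 for COR against GP, and -1.80 for SAG against GP. The PF against SAG ratio passed 3-fold with a pseudocount of 0.1 in place of 1, at 1.71, and relative to *Gapdh*, at 1.66. Relative to *Gapdh* the COR against GP ratio also passed it, at 1.64.

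*Dlx6* (chromosome 6, 6813334 to 6818568), which patterns the jaw together with *Dlx5*, was at 7.16 FPKM in GP, 6.60 in COR, 0.772 in SAG, and 6.68 in PF. PF, COR, and GP lay within 1.07-fold of the next in order and SAG stood apart below them. The log2 ratio was 2.11 for PF against SAG, 2.10 for COR against SAG, and -2.20 for SAG against GP. It was the only member past 3-fold between PF and SAG. The SAG value corresponds to about 65.9 fragments. *Dlx5* and *Dlx6* lie 9236 bases apart, and the ratio of *Dlx5* to *Dlx6* was 11.5 in GP, 15.5 in COR, 27.0 in SAG, and 3.39 in PF, so the neighbours did not keep a fixed ratio.

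*Dlx1* (chromosome 2, 71366170 to 71372038) and *Dlx2* (chromosome 2, 71381466 to 71384811), the pair that patterns the upper jaw and marks forebrain interneurons, stayed below 1 FPKM. *Dlx1* was at 0.092 FPKM in GP, 0.057 in SAG, and 0.037 in COR, and it was listed at 0 in PF. *Dlx2* was at 0.968 FPKM in GP, 0.243 in SAG, and 0.231 in COR, and it too was listed at 0 in PF. Neither passed the filter for ratios, so no fold is given. The *Dlx1* values correspond to about 12.3 fragments in GP, 8.97 in SAG, and 5.29 in COR. For *Dlx2* they correspond to about 78.1, 23.2, and 19.6. PF was the shallowest library, and the part of depth in its zeros was not tested. Of the 9 genes, 7 reached 1 FPKM in PF and COR and 6 in SAG and GP. Of all 23946 genes, 11826 reached it in PF, 11402 in COR, 12263 in SAG, and 11789 in GP.

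**Figure D2:**
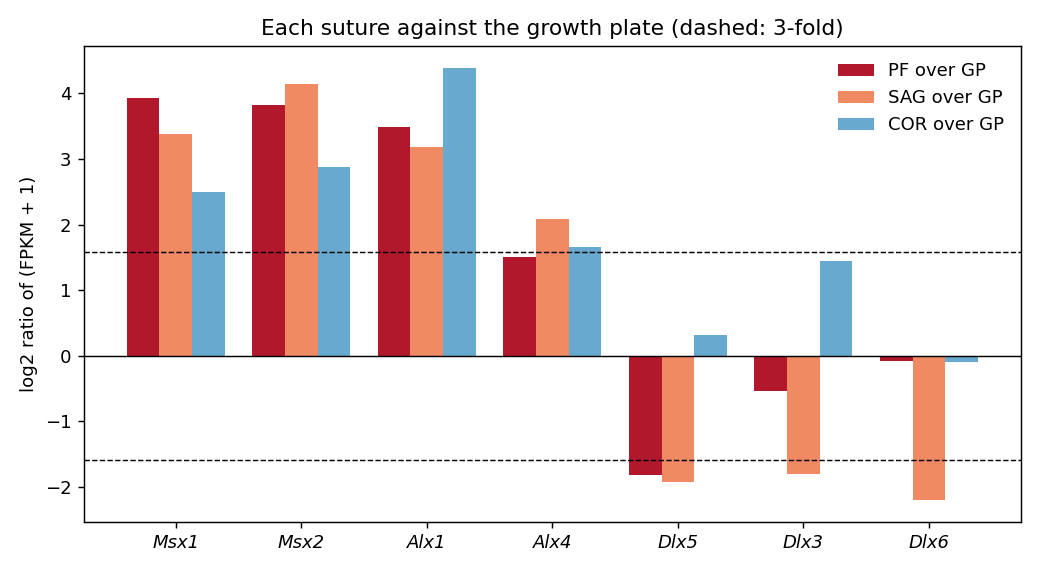
Log2 ratio of FPKM + 1 of each suture to GP for the 7 members that reached 1 FPKM, with dashed lines at 3-fold. The bars of *Msx1*, *Msx2*, *Alx1*, and *Alx4* are positive in each suture, and those of *Dlx5* and *Dlx3* are negative in PF and SAG and positive in COR.

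Counted over the 7 members at 1 FPKM or more, 3 were at least 3-fold higher and 1 lower in PF than in GP, against 5.72% and 6.24% of all genes compared. In SAG, 4 were higher and 3 lower than in GP, against 4.8% and 3.86%, so that each of the 7 was past the limit. In COR, 4 were higher and 0 lower than in GP, against 1.2% and 3.2%. The median log2 ratio to GP over these members was 1.51 in PF, 2.09 in SAG, and 1.65 in COR, compared with 0.027, 0.027, and 0.018 over all genes. In PF and SAG the 4 Msx and Alx members were above GP and the 3 Dlx members below it, while in COR 6 of the 7 were above GP. With *Dlx1* and *Dlx2* included, the median turned to -0.088 in PF and -0.047 in SAG.

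Between sutures the Dlx genes carried each difference of 3-fold or more. COR held *Dlx3*, *Dlx5*, and *Dlx6* higher than SAG, 3 of 7 members, and none lower, against 3.11% and 6.15% of all genes. PF held *Dlx3* and *Dlx5* lower than COR, 2 of 7, and none higher, against 4.87% and 6.81%. PF held *Dlx6* higher than SAG, 1 of 7, and none lower, against 6.64% and 9.04%. The median log2 ratio over the members was 1.22 for COR against SAG, -0.15 for PF against COR, and 0.31 for PF against SAG, compared with -0.020, 0.049, and 0.025 over all genes. The members went both ways in each pair, and each of these medians turned sign under an alternative, to -0.015 for COR against SAG with *Dlx1* and *Dlx2* included, to 0.080 for PF against COR relative to *Gapdh*, and to -0.052 for PF against SAG after the GC correction. No Msx or Alx member passed the limit between sutures under the settings as reported. With values relative to *Gapdh*, *Msx1* passed it for PF against COR, at 1.69.

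**Figure D3:**
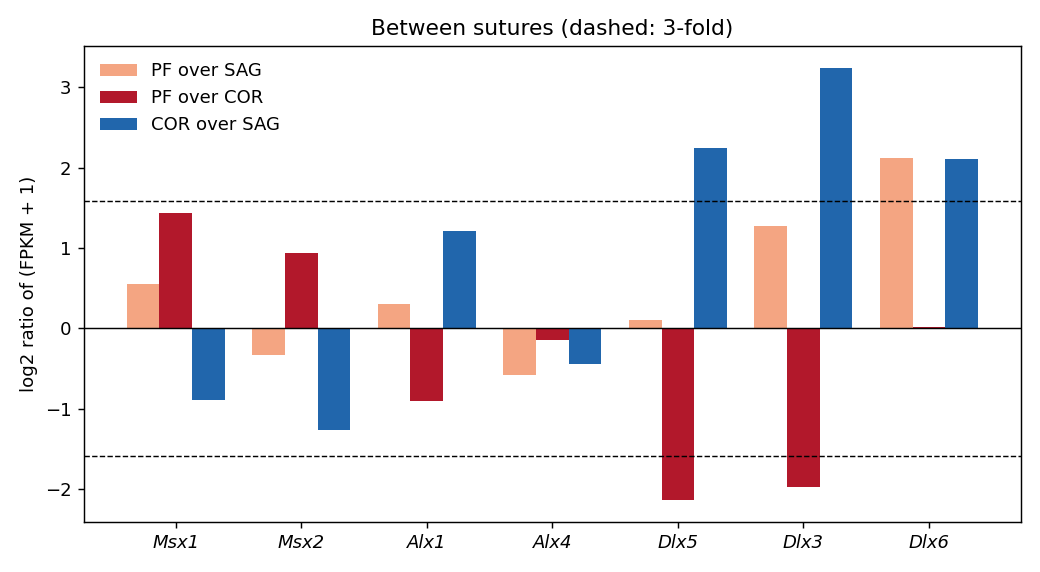
Log2 ratio of FPKM + 1 between pairs of sutures for the 7 members that reached 1 FPKM, with dashed lines at 3-fold. *Dlx3* and *Dlx5* pass the line for PF against COR and COR against SAG, *Dlx6* passes it for PF against SAG and COR against SAG, and the Msx and Alx bars stay inside it.

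Summed over the 9 genes, expression was 119 FPKM in GP, 291 in COR, 280.4 in SAG, and 361 in PF. The family that made up most of the sum changed between libraries. The Msx genes held 15.2% of it in GP, 40.1% in COR, 81.9% in SAG, and 83.3% in PF. The Dlx genes held 82.2% in GP, 44.9% in COR, 8.31% in SAG, and 9.40% in PF. The Alx genes held between 2.56% in GP and 15.1% in COR. The ratio of summed Msx to summed Dlx was 0.185 in GP, 0.892 in COR, 9.85 in SAG, and 8.87 in PF, and since it is taken within a library it does not depend on the scaling between libraries.

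**Figure D4:**
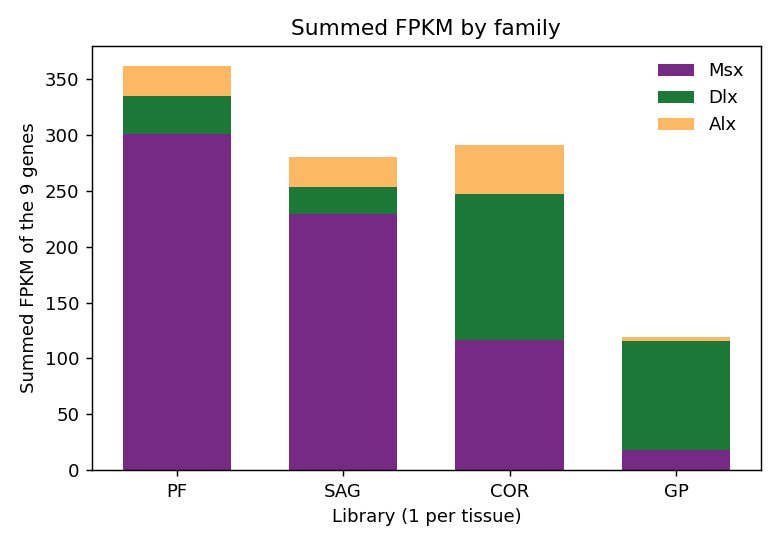
Summed FPKM of the Msx (*Msx1*, *Msx2*), Dlx (*Dlx1*, *Dlx2*, *Dlx3*, *Dlx5*, *Dlx6*), and Alx (*Alx1*, *Alx4*) genes in each library, stacked. The total is highest in PF at 361 FPKM and lowest in GP at 119, and the Dlx part exceeds the Msx part in COR and GP.

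*Dlx4* and *Msx3*, related genes outside the 9, were near or at 0. *Dlx4*, which lies 15159 bases from *Dlx3*, was listed at 0 in PF and did not exceed 0.639 FPKM, its value in GP. *Msx3*, a gene of the dorsal neural tube, was listed at 0 in every library.

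Antisense RNAs lie at several of these loci, and the labels do not say that strand was kept, so reads of overlapping exons cannot be told apart. *Msx1os*, named after its values were seen, was at 0.664 FPKM in GP, 3.40 in COR, 5.80 in SAG, and 9.20 in PF, in the same order as *Msx1*. *Msx1* exceeded it by between 24.0-fold in GP and 30.2-fold in SAG. *Dlx6os1*, the Evf transcript known from the forebrain, was at 0.993, 0.708, 2.14, and 2.35 FPKM in PF, SAG, COR, and GP; its gene spans *Dlx6* on the other strand but shares 0 exonic bases with it in the GENCODE model. *Dlx6as2* was at 1.82 FPKM in PF and between 0.102 and 0.266 in the others. *Dlx1as*, which shares 335 exonic bases with *Dlx1*, did not exceed 0.117 FPKM.

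Osteoblast genes were read beside the Dlx genes because DLX5 and DLX3 are known to act on several of them. *Col1a1* was listed at 0 in COR and at 5048 FPKM in GP, 4894 in PF, and 606 in SAG. The files hold no fragment counts, so this 0 cannot be read as low expression, and the counts that follow leave the gene out, a choice made after the data were seen. Of 11 such genes, 11 were at least 3-fold higher in COR than in SAG, with a median log2 ratio of 3.54 compared with -0.020 over all genes. Over all genes 3.11% were higher by that much. For PF against COR, 7 of 11 were lower and 0 higher, and for SAG against GP 7 of 11 were lower and 0 higher. Over all genes, 4.87% and 3.86% were lower. For PF against SAG, 4 of 10 were higher (6.64% of all genes) and 0 lower, median 1.46. *Dlx5* was at 0.11 there and *Dlx3* at 1.27. For COR against GP, 4 of 11 were higher (1.2%) and 0 lower, median 1.32, with *Dlx5* at 0.31 and *Dlx3* at 1.44. For PF against GP, 3 of 11 were lower (6.24%) and 0 higher, median -0.65, with *Dlx5* at -1.82 and *Dlx3* at -0.53. *Sp7*, the osteoblast master factor downstream of *Runx2*, was at 47.3 FPKM in GP, 199.9 in COR, 7.93 in SAG, and 33.8 in PF. Chosen after their values were seen, *Runx2* was at 18.9, 9.41, 30.4, and 18.1 FPKM in PF, SAG, COR, and GP, *Dmp1*, a gene of osteocytes, at 19.7, 21.8, 281, and 55.0, and *Ibsp*, which encodes bone sialoprotein, at 123, 104, 1575, and 761. COR was highest for each of these, as it was for *Dlx5* and *Dlx3*. *Dlx5* differed from *Sp7* in GP, where it was near its COR value while *Sp7* was well below. Over 4 libraries such likeness is a description and says nothing of control, and the part of osteoblast number in the Dlx values was not tested.

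**Figure D5:**
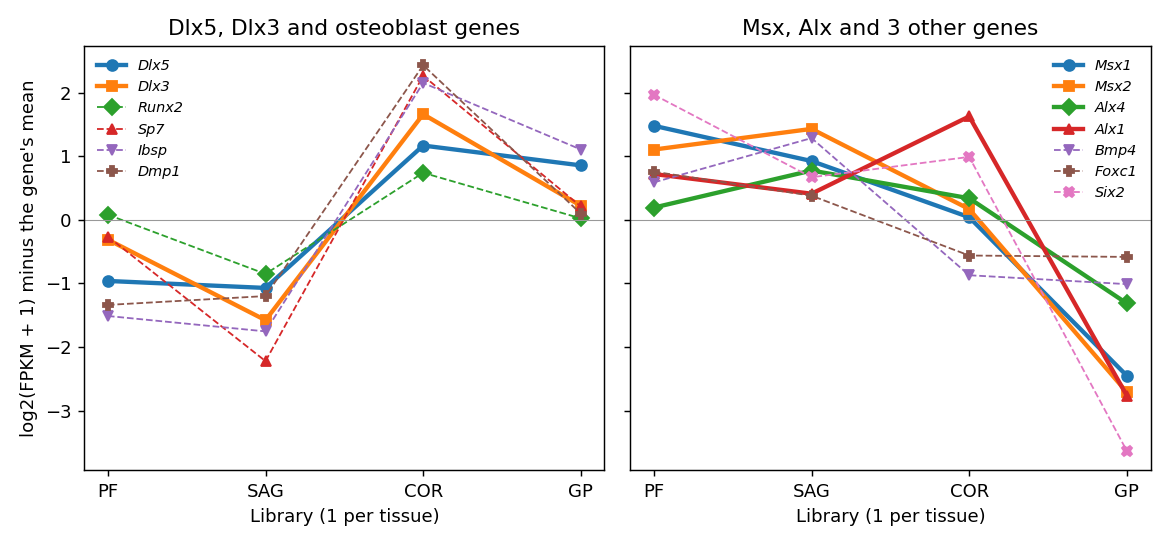
Log2(FPKM + 1) minus each gene's mean over the PF, SAG, COR, and GP libraries, for *Dlx5* and *Dlx3* with osteoblast genes and for the Msx and Alx genes with *Bmp4*, *Foxc1*, and *Six2*; thick lines are members and lines only join the values of a gene. *Dlx5* and *Dlx3* peak in COR with the osteoblast genes, and *Six2* is lowest in GP as the Msx and Alx genes are.

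BMP signaling, which induces *Msx2* in many tissues, was read through its ligands, receptors, and feedback genes. Of 5 ligand genes, 1 was at least 3-fold higher and 3 lower in PF than in GP, 2 higher and 1 lower in SAG, and 0 higher and 1 lower in COR. Over all genes the shares were 5.72% and 6.24% in PF, 4.8% and 3.86% in SAG, and 1.2% and 3.2% in COR. *Bmp5* was lower in each suture, at 29.4 FPKM in GP, 4.95 in COR, 4.43 in SAG, and 4.13 in PF. *Bmp4*, named after its values were seen, was at 14.1 FPKM in GP, 15.7 in COR, 73.5 in SAG, and 45.0 in PF, high in PF and SAG where *Msx2* was highest and about equal in COR and GP where *Msx2* differed by 10.4-fold. Of the receptor and SMAD genes, 6 or 7 were compared in each pair and the only one past 3-fold was *Bmpr1b*, at 0.043 FPKM in PF and 2.48 in GP. *Acvr1*, the next of these by range, was between 9.95 FPKM in SAG and 21.1 in GP. Of the 8 feedback and antagonist genes, *Grem1*, a secreted BMP antagonist, was lower in every suture, between 0.234 and 0.482 FPKM against 15.3 in GP. *Id1*, a direct BMP target named after its values were seen, was at 320.0 FPKM in SAG, 115 in COR, 99.1 in GP, and 94.5 in PF, past 3-fold for SAG against GP and for PF against SAG. *Chrd*, a BMP antagonist named likewise, was at 12.1 FPKM in PF, 11.8 in GP, 3.77 in COR, and 2.61 in SAG, and it was past 3-fold in the same comparisons, lower in SAG in each. Among 7 genes of proteins that bind MSX or DLX factors, *Tle1*, a corepressor, was at 17.3 FPKM in GP, 17.2 in COR, 27.1 in SAG, and 1.21 in PF, and *Tle4* was highest in SAG at 9.47 and lowest in PF at 1.44. Both were at least 3-fold lower in PF than in SAG, and none of the 7 was higher, against 9.04% and 6.64% of all genes.

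Other craniofacial transcription factors were compared with GP as a reference for the Msx and Alx genes. Of 20 compared in PF, 7 were at least 3-fold higher than in GP and 0 lower, against 5.72% and 6.24% of all genes. Of 22 in SAG, 4 were higher and 2 lower, against 4.8% and 3.86%. Of 20 in COR, 3 were higher and 3 lower, against 1.2% and 3.2%. *Six2*, a factor of progenitor cells in the skull base and kidney, was the only one of these higher in all 3 sutures, at 2.94 FPKM in GP, 96.5 in COR, 77.0 in SAG, and 191 in PF. Over all genes, 0.257% were at least 3-fold higher in all 3. *Twist1*, the gene of Saethre-Chotzen syndrome, was at 124 FPKM in COR, 65.6 in GP, 42.1 in PF, and 40.4 in SAG, highest in COR as *Dlx5* was. *Foxc1*, which acts with *Msx2* in the skull vault, was at 24.0 FPKM in GP, 24.4 in COR, 47.8 in SAG, and 62.4 in PF, in the suture order of *Msx1* but with COR and GP about equal. *Twist1* and *Foxc1* were named after their values were seen.

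The genes nearest to each member were found by Euclidean distance between mean-centred log2(FPKM + 1) over the 4 libraries, among 9802 genes at 5 FPKM or more in at least 1 library. *Msx1* was nearest to *Gdf10*, at a distance of 0.18, and then to *Slc4a10* at 0.41. *Msx2* was nearest to *Msx1* at 0.69 and *Gdf10* at 0.71. *Dlx3* was near *Dok5*, at 0.24. *Dlx5* was nearest to *Elmo1* and to *Mepe*, a gene of osteocytes, both at 0.37. *Dlx6* was nearest to *Ptgis* at 0.31 and *Fkbp7* at 0.32, *Alx4* to *Kcnip1* at 0.26 and *Rnaset2b* at 0.44, and *Alx1*, with no near neighbour, to *Efemp1* at 1.25 and *Mir6516* at 1.42. Among members, *Dlx3* and *Dlx5* were 1.15 apart, *Alx1* and *Alx4* 2.04, and *Msx2* and *Dlx5*, the farthest pair, 4.93. With 4 points per gene these distances describe these libraries alone.

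Markers of other cells that the dissections could hold moved with some of these values. Summed over 7 genes of choroid plexus, expression was 5350 FPKM in SAG and between 51.9 and 504 in the others, and over 7 genes of chondrocytes it was 3444 in SAG and 2329 in GP compared with 125 in PF and 150.1 in COR. Most of the choroid plexus sum in SAG was *Ttr* at 5103 FPKM. *Aqp1* was lowest in SAG, at 11.9, and at 41.1 made up most of the GP sum. SAG is the library where *Dlx3*, *Dlx5*, and *Dlx6* were lowest, though *Dlx5* was about as low in PF and lower there after the GC correction. The part of such cells in these values was not tested. Other markers were at least 3-fold higher in all 3 sutures than in GP, as *Msx1*, *Msx2*, and *Alx1* were. These were 2 of 5 meningeal genes compared (*Foxd1* and *Ptgds*), 2 of 6 of choroid plexus (*Ttr* and *Otx2*), and 1 of 5 of keratinocytes (*Krt15*). Over all genes the share was 0.257%. *Foxd1* was at 2.52 FPKM in GP, 37.1 in COR, 52.3 in SAG, and 135 in PF, in the order of *Msx1*, while *Ptgds*, *Ttr*, *Otx2*, and *Krt15* were highest in SAG. The part of such cells in the Msx and Alx values was not tested. Genes of forebrain GABAergic neurons, which express *Dlx1*, *Dlx2*, *Dlx5*, and *Dlx6*, summed to between 2.08 and 51.7 FPKM over 7 genes; nearly all of the GP sum was *Npy* at 51.6, while *Slc32a1* and *Sp9* were listed at 0 in every library and *Gad1* in every suture. The other sums were 3.83 to 11.2 for 8 genes of neurons, 14.8 to 139 for 7 of keratinocytes, where *Krt14* was listed at 0 in every suture, 695 to 1966 for 6 of meninges, most of it *Lum*, at most 16.9 for 5 of endothelium, 5.55 to 34.4 for 5 of leukocytes, and 1.83 to 15.6 for 5 of erythroid cells.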

How the data were processed

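Bulk RNA-seq libraries of sorted CD51+;CD200+ cells from 4 tissues were analysed, with 1 library per tissue grouped by sample title. Reads were aligned by the authors in paired-end mode with STAR 2.5.1b to mm9, who then estimated FPKM per gene symbol using Cuffdiff from Cufflinks 2.2.1 and an iGenomes gene model; the deposited values are these FPKM, and their scaling between libraries is not given in the sources used here. The cDNA came from a low-input amplification kit. Files hold no fragment counts. Relative depth and approximate fragments were estimated from the commonest smallest increment in the product of FPKM and transcript length, over 8095 genes with a single coding transcript; this assumes scaling in proportion to library size and gives no counting interval.

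Members and gene lists were chosen with earlier results of these data known. All members, the remaining family genes, antisense genes, and list genes past 3-fold against GP in each suture, otherwise the 2 of largest range, were named, with the 2 nearest genes per member and the 5 highest other homeobox genes; some genes that this rule names are not reported here. Gene positions are GENCODE on mm9; promoters are RefSeq windows (table build GRCm38.p6) matched to mm9. Alternatives were a pseudocount of 0.1, median-ratio and quantile scaling, values relative to *Gapdh*, other filters, a 2-fold limit, and, added after the data were seen, a GC correction (lowess, span 0.3) leaving out a suture library, and leaving out *Col1a1*. Fold calling was checked on simulated data with planted changes well past 3-fold in genes of higher FPKM. That check does not cover ratios near 3-fold or genes with low values. Python 3.11.15, scipy 1.17.1, pandas 2.3.3, numpy 2.4.6, statsmodels 0.14.6 and matplotlib 3.10.9 were used.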

Additional observations from a re-analysis of the deposited data

How the results depend on the processing

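No paired analysis was possible because there was a single library for every tissue. *Msx1*, *Msx2*, and *Alx1* passed 3-fold in all 3 sutures against GP under each alternative run, and no member past 3-fold changed sign. With a pseudocount of 0.1, 2 members differed for PF against SAG in place of 1, and the median log2 ratio of the members to GP was 1.81 in PF, 2.45 in SAG, and 1.98 in COR. Relative to *Gapdh*, which took the median of all genes to 0.51 for PF against SAG, 2 members differed for PF against SAG, and the medians were 0.81 for PF against SAG, 0.080 for PF against COR, 1.48 for COR against SAG, and 1.90 for PF against GP. Without a filter, *Dlx1* and *Dlx2* entered and the medians were -0.015 for COR against SAG, -0.088 for PF against GP, and -0.047 for SAG against GP, a reversed sign that comes from adding these genes. With a 2-fold limit, 2 members differed for PF against SAG and 5 for COR against SAG. No share over all genes is given under the alternatives, so their counts describe the members alone. After the GC correction the medians were -0.052 for PF against SAG and 1.20 for PF against GP. The cause was not tested except where stated. Of 42 single-gene ratios, each kept its sign and its side of 3-fold under median-ratio scaling and quantile normalization. *Dlx1* and *Dlx2* were the lowest members in each suture, and the part of depth in their values was not tested.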

Other observations

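Of 145 further homeobox genes outside the HOX clusters, 78 reached 1 FPKM in at least 1 library. *Six2*, *Otx2*, and *Bsx* were at least 3-fold higher in all 3 sutures than in GP, and *Pitx1* and *Shox2*, genes of limb development, were lower in all 3. These were 3 and 2 of the 78, against 0.257% and 0.979% of all genes. *Pitx1* was at 83.7 FPKM in GP and between 0.197 and 0.536 in the sutures, and *Shox2* was at 48.8 and between 0.161 and 1.89. The 5 highest by mean were *Prrx2*, *Six2*, *Otx2*, *Prrx1*, and *Bsx*. *Prrx2*, a mesenchymal factor, was at 196 FPKM in GP, 433 in COR, 178 in SAG, and 335 in PF, above *Msx1* in each library. *Prrx1* was between 31.0 FPKM in SAG and 57.7 in GP. *Otx2* and *Bsx*, genes of the developing brain, were at 168.3 and 115 FPKM in SAG and at 0.269 and 0.236 in GP. The 9 Msx, Dlx, and Alx genes made up 28.4% of the summed FPKM of all these homeobox genes in PF, 23.0% in COR, 20.2% in SAG, and 14.3% in GP, and between 0.0231% and 0.0656% of all FPKM. By the first share COR was above SAG, and by the second SAG, at 0.0627%, was above COR, at 0.0593%. The other homeobox genes summed to 1106 FPKM in SAG and 975.7 in COR. *Otx2* and *Bsx*, each at 4.09 FPKM in COR, are part of these sums, and their part in the order of SAG and COR was not tested.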
